A study of Mus musculus with 18 samples.

Results

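*Lrp2* encodes megalin, a giant endocytic receptor of the low-density lipoprotein (LDL) receptor family, and it was followed here with 9 relatives and partners in RNA of the subventricular zone (SVZ), where neural stem cells persist beside the lateral ventricles of the adult mouse brain. All 26 probes of the Illumina Mouse WG6-v2 array that carry the symbol of 1 of these 10 genes and no other were taken, of 45281 probes in all and 19057 genes with such a probe. *Lrp2* was chosen by its genotype difference on these same arrays, so its own genotype values are given as a description and are not independent evidence. The other 9 genes were picked as family members or partners.

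The series compares 9 Tam-Idh1-KI mice with 9 controls on the c57bl6 background, 1 array per mouse, aged 5 to 9 months. Tam-Idh1-KI mice carry the tamoxifen-inducible *Nes-Cre* ER(T2) transgene, whose recombinase is made where the nestin promoter is active, and 1 copy of the *Idh1* fl(R132H) allele, whose mutant product is switched on by recombination. Controls were wild type for *Idh1*, with or without the transgene, and both groups received tamoxifen at 50 mg/kg on 5 days at 5 to 6 weeks of age. Nestin is also made by cells of the niche other than stem cells, and the study describes the targeted allele as leaky, so the mutant product need not be confined to recombined cells. The arrays were run on 2 hybridisation days with 6 and then 3 mice of each group. Mice of the first day were at most 6 months old and those of the second at least 7, so day and age cannot be told apart. Within day 1 the median age was 5 months in Tam-Idh1-KI and 6 months in control mice. There were 2 females and 4 males of each genotype on day 1. On day 2 all 3 Tam-Idh1-KI mice were female, beside 1 female and 2 male controls. The tissue was whole microdissected SVZ, in which more cells of a type and more RNA per cell cannot be told apart.

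Megalin sits on the apical membrane of absorptive epithelia, where it binds many proteins from the fluid outside, takes them into the cell through coated pits and returns to the surface. It often works with cubilin, the product of *Cubn*, which has no membrane span of its own, and it needs the chaperone RAP, the product of *Lrpap1*, to fold without binding ligands too early. In the brain megalin is known from the neuroepithelium, the ependyma that lines the ventricles and the choroid plexus, and loss of *Lrp2* in mice disturbs forebrain formation and adult SVZ neurogenesis. Its relatives divide other tasks among them. *Lrp1* encodes a broad clearance and signalling receptor and *Lrp1b* a close relative of it, *Lrp8* and *Vldlr* encode both reelin receptors, and *Lrp4* encodes the agrin receptor of the neuromuscular junction. *Lrp10* and *Lrp12* encode smaller, more distant members of the family.

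*Lrp2* lies on chromosome 2 at 69424335 to 69586029 of GRCm38.p6, on the minus strand. Its promoter window is shown beside that of *Mlf1*, a gene of the ependymal marker list whose level followed *Lrp2* closely across the mice, as given further on. Each window is RefSeq's, on GRCm38.p6, and runs 5′ to 3′ on the gene's own strand from 250 bases before to 50 bases after the annotated start. Capitals mark matches, on either strand, to the GC box GGGCGG, to GTTGCCA, part of the X-box bound by RFX factors, and to TGTTTAC, a core bound by forkhead factors; both latter factor families are known to act in ciliated cells.
*Lrp2*, chr2:69585980-69586279, minus strand: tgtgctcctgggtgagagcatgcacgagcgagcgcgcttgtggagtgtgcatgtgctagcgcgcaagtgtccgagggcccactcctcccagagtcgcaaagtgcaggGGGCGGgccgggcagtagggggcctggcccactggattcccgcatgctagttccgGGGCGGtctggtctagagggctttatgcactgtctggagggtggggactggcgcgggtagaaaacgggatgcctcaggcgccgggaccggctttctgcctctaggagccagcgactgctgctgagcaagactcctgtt
*Mlf1*, chr3:67373847-67374146, plus strand: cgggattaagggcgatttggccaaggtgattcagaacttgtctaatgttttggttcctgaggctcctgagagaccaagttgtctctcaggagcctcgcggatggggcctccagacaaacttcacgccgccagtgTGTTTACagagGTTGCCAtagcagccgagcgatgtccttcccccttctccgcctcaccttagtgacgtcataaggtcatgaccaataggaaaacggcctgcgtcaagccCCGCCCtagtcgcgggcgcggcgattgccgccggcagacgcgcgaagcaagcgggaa

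The *Lrp2* window held 2 GC boxes, starting 143 and 88 bases before the start, and no match to either of the other letter strings. The *Mlf1* window held TGTTTAC 116 bases and GTTGCCA 105 bases before the start, and 1 GC box on the opposite strand. Of all 32851 windows of this length, 35.7% held GGGCGG, 4.38% GTTGCCA and 3.65% TGTTTAC. Windows were at hand for 7 of the 10 genes, 10 windows in all, of which 4 held a GC box, 1 (a window of *Lrp8*) held GTTGCCA and 0 held TGTTTAC.

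Of the 26 probes, 16 passed the filter, which asks for a detection p-value under 0.05 on at least 9 of the 18 arrays. The detection p-value compares a probe's bead signal with that of negative control beads. Each of the 16 was detected on 18 of 18 arrays, and of the 10 that failed, 7 were detected on no array and 3 on 1. *Cubn* was the only one of the 10 genes with no kept probe. Its 1 probe was detected on 0 arrays, with signals of 102.2 to 150.3 and a lowest detection p of 0.0972. A probe that is not detected gives no level of the gene, so cubilin cannot be placed beside megalin here. Each of the other 9 genes was represented by its brightest kept probe, and 11465 genes were tested in all. Levels below are normalised log2 intensities, and since probes differ in brightness no level is set against that of another probe.

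*Lrp2* has 3 probes that all name the same transcript record, and 1 of them, ILMN_2735522, was detected. On this probe the 9 Tam-Idh1-KI mice lay between 7.34 and 8.94 (median 7.80) and the 9 controls between 6.48 and 7.92 (median 7.20). On day 1 the Tam-Idh1-KI mice numbered 1 to 6 were at 7.83, 7.80, 7.54, 7.68, 7.42 and 7.34. The controls of that day were at 7.32, 6.80, 7.20, 6.48, 6.70 and 6.50. The lowest Tam-Idh1-KI mouse thus lay just above the highest control. On day 2 the Tam-Idh1-KI mice 7 to 9 were at 8.94, 8.00 and 8.39 and the controls at 7.27, 7.77 and 7.92. The ranges of the groups overlap over both days together and do not overlap within a day. All 9 Tam-Idh1-KI mice lay above every control of their day, as was so for 7 of the 11465 genes (0.0611%), and 13 genes (0.113%) did not overlap in either direction.

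The mean was 7.88 ± 0.31 (SD within days, n = 9) in Tam-Idh1-KI and 7.11 ± 0.35 (n = 9) in control mice. With hybridisation day and sex in the fit the difference was 0.74 on the log2 scale (SE 0.14, 95% confidence interval 0.43 to 1.04), or 1.67-fold. It was 0.77 on day 1 and 0.79 on day 2 as a plain difference of means. In the all-gene fit with limma this gave the adjusted p = 0.0477 that chose the gene, at rank 19 of the 20 genes (0.174%) under the threshold of 0.05. *Bace2* at rank 20 (adjusted p = 0.0482) was just inside the threshold too, and *Gm5* (adjusted p = 0.0653) was the first outside it. With the replicate number as a block in place of day the difference was 0.73 (SE 0.14) and its adjusted p = 0.116 in limma, which ends the call. With age added to the fit it was 0.78 (SE 0.15, adjusted p = 0.0626). The size of the difference depended on the processing. It was 0.43 (SE 0.088) without background correction and 0.59 on the log2 values processed by the authors. Over the 21644 kept probes in place of genes the adjusted p of *Lrp2* was 0.0638, and it was under 0.05 in 11 of 36 alternative fits. The difference was positive in all 37 alternatives that gave one. They reuse the arrays on which *Lrp2* was chosen, so this sign was favoured in advance and is not independent evidence. The signal as deposited, before background correction and scaling, overlapped within days: it was 193.7 to 285.8 in controls and 269.0 to 503.5 in Tam-Idh1-KI mice on day 1, and 6 of 9 Tam-Idh1-KI arrays exceeded every control of their day.

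The other probes, ILMN_3117209 and ILMN_1233247, were detected on 0 of 18 arrays. Their lowest detection p-values were 0.109 and 0.205, and their differences in a fit over all probes were 0.06 (SE 0.092) and 0.11 (SE 0.059). The *Lrp2* result therefore rests on 1 probe. Signals of the detected probe ran from 193.7 to 1030 and those of the undetected ones from 103.7 to 192.5.

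**Figure D1:**
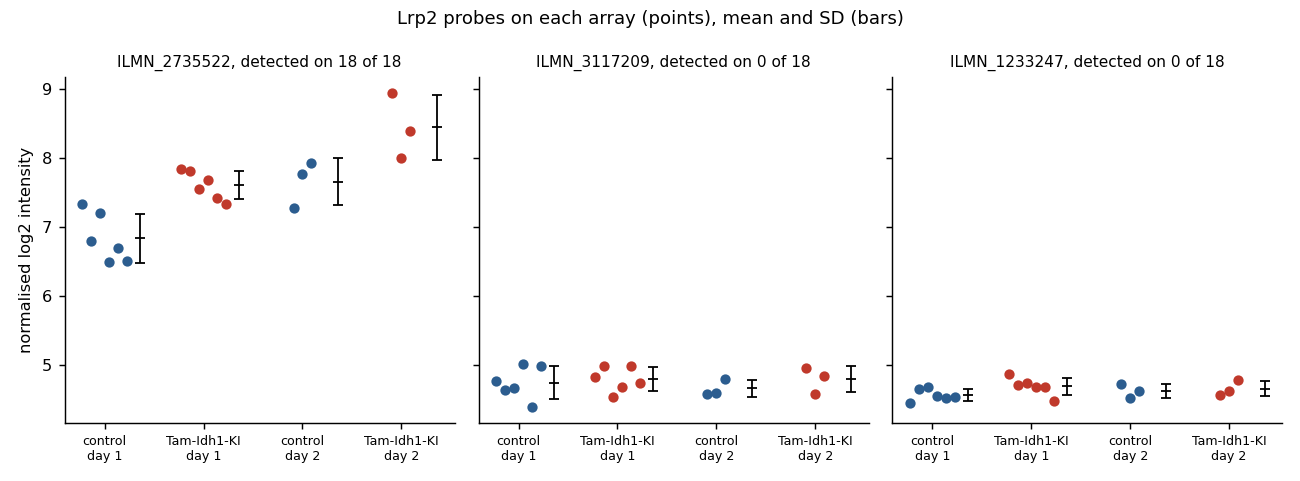
Normalised log2 intensity of the 3 *Lrp2* probes on each of the 18 arrays (points), by group and hybridisation day, with the mean and SD of each set as black bars. On the detected probe all 9 Tam-Idh1-KI arrays lie above the controls of their day, and on both undetected probes the sets overlap near the lower end of the scale.

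The genotype difference of *Lrp2* was not shown to depend on day or sex. The interaction with day was −0.09 (SE 0.33, limma adjusted p = 1.00) and that with sex −0.27 (SE 0.31, adjusted p = 0.997), and 0 of 9 tested members passed either interaction, at an unadjusted p under 0.05 too. Over all genes 0% passed the interaction with day and 0.00872% that with sex, and 2.9% and 3.38% had an unadjusted p under 0.05. These standard errors leave room for sizeable interactions in either direction.

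None of the 8 other tested members passed between the genotypes in the same fit, against 0.174% of all genes. At an unadjusted p under 0.05 there was 1 of the 8, against 9.57% of all genes. The methods' t-test, which leaves out day and sex, found 0 of 8 at an unadjusted p under 0.05, against 538 of all 11465 genes. The median difference of the 8 members was 0.03, beside 0.01 over all genes tested, and 5 of 8 were positive.

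*Lrp10*, the receptor also known to shuttle between the trans-Golgi network and endosomes, was the one with the unadjusted p under 0.05. Its Tam-Idh1-KI mice lay between 11.01 and 12.06 (median 11.31) and its controls between 10.88 and 11.82 (median 11.05). In 8 of 9 Tam-Idh1-KI mice it was above the control mean of the day and in 6 above every control of the day, so that the groups overlapped. The difference was 0.20 (SE 0.072, 95% confidence interval 0.05 to 0.35; limma adjusted p = 0.369), with 0.17 on day 1 and 0.27 on day 2.

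*Lrp1*, which encodes the clearance receptor of many of megalin's ligands, was at −0.16 (95% confidence interval −0.44 to 0.11). Its range was 6.89 to 8.70 in Tam-Idh1-KI and 7.18 to 8.78 in control mice. *Lrp1b* was at 0.15 (−0.20 to 0.50), with 3 probes of which 1 was detected. *Lrp4*, also with 1 detected probe of 3, was at 0.14 (−0.10 to 0.38). *Lrpap1*, the gene of the chaperone that megalin needs, was at 0.04 (−0.10 to 0.19), with 12.41 to 12.74 in Tam-Idh1-KI and 12.28 to 12.69 in control mice. The interval of the *Lrpap1* difference lies below that of *Lrp2*. Since *Lrp2* was chosen for its difference, this order was favoured in advance, and the difference between genes was not tested.

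The reelin receptor *Lrp8*, also called apolipoprotein E receptor, gave different answers on different probes. It has 5 probes, 3 of them kept and annotated to the same transcript record. The brightest, ILMN_1247823, was at −0.09 (95% confidence interval −0.28 to 0.10) and ILMN_2662779 at −0.07 (−0.36 to 0.23). ILMN_1249775 was at −0.61 (SE 0.13, −0.87 to −0.35, limma adjusted p = 0.0932 over the kept probes). Signals of this probe were low, at 138.0 to 370.1, and without background correction its difference was −0.22 (limma adjusted p = 0.188).

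On ILMN_1249775 the day 1 Tam-Idh1-KI mice 1 to 6 were at 5.45, 6.01, 5.99, 5.34, 5.70 and 5.49, and the controls at 6.55, 6.27, 6.35, 6.38, 6.39 and 5.94. On day 2 they were at 7.03, 6.26 and 6.78, and the controls at 7.17, 7.33 and 6.60. In 8 of 9 Tam-Idh1-KI mice the value was under the control mean of the day and in 5 it was under every control of the day, so both days had some overlap. The day differences were −0.65 and −0.34. This probe's adjusted p fell under 0.05 with array weights (0.0480) and without Tam-Idh1-KI replicate 7 (0.04999), and was 0.0510 or higher in the other alternatives. Where on the transcript each probe binds was not analysed here, so whether the probes read different isoforms was not tested.

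**Figure D2:**
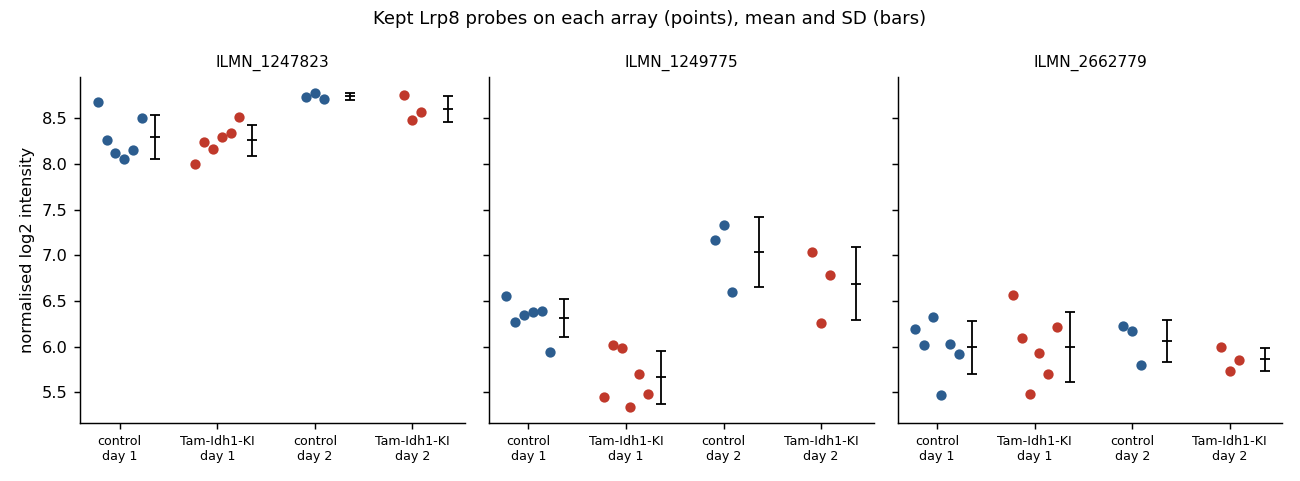
Normalised log2 intensity of the 3 kept *Lrp8* probes on each of the 18 arrays (points), by group and hybridisation day, with the mean and SD of each set as black bars. The probe in the middle panel is lower in most Tam-Idh1-KI arrays, and on the other two the sets overlap.

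*Vldlr*, the other reelin receptor gene, has 6 probes, of which 5 were kept. The brightest was at −0.01 (95% confidence interval −0.16 to 0.14) and 3 others between −0.11 and 0.04. The fifth, ILMN_2458671, was at −0.31 (SE 0.11, limma adjusted p = 0.413 over the kept probes). Its signals were low too, at 132.6 to 270.2, and without background correction its difference was −0.13 (limma adjusted p = 0.494). Its Tam-Idh1-KI mice lay between 5.62 and 6.62 and its controls between 5.65 and 6.98, and in 0 of 9 Tam-Idh1-KI mice was it above the control mean of the day. *Lrp12* had 2 kept probes, at 0.02 (−0.11 to 0.15) and −0.02 (−0.16 to 0.13). Over the 15 kept probes of the 8 genes 0 passed at probe level, against 0.097% of all kept probes, and 3 had an unadjusted p under 0.05, against 8.98%.

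**Figure D3:**
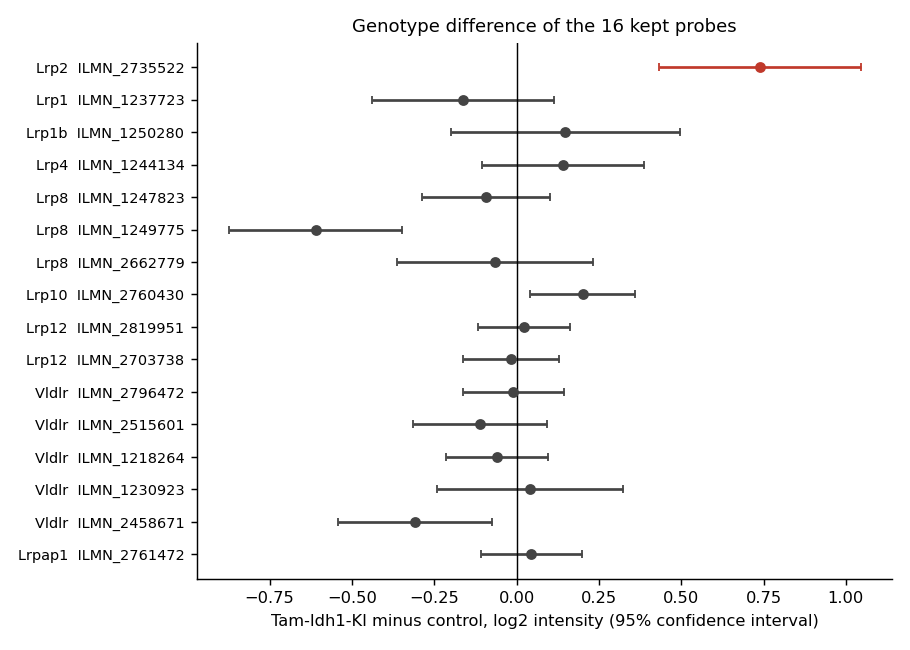
Tam-Idh1-KI minus control difference in log2 intensity (x axis) of each of the 16 kept probes, with 95% confidence intervals from the probe-level limma fit of genotype, hybridisation day and sex. *Lrp2*, in red, is the gene chosen for this difference, at 0.74, and the other probes lie between −0.61 and 0.20.

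Between the hybridisation days, which also separate the ages, 8 of 9 members passed, 7 higher and 1 lower on day 2. Over all genes 63.8% passed between the days, 36.8% higher and 27.1% lower, so a change between days was common on these arrays. *Lrp1* differed most among the members, by 1.24 (SE 0.14, adjusted p = 1.04e-06). Its 12 arrays of day 1 lay between 6.89 and 8.03 and its 6 arrays of day 2 between 8.14 and 8.78. The days did not overlap for *Lrp1*, *Lrp4*, *Lrp10*, *Lrp12* and *Vldlr*. The share of all genes without such overlap was not counted. *Lrp2* was higher on day 2 by 0.78 (SE 0.16, adjusted p = 0.000357), a step as large as its genotype difference, with 6.48 to 7.83 on day 1 and 7.27 to 8.94 on day 2. *Lrp4* rose by 0.75 (SE 0.13), *Lrp10* by 0.72 (SE 0.079) and *Lrp12* by 0.52 (SE 0.069). *Lrp8* rose by 0.36 and *Vldlr* by 0.34. *Lrp1b* fell by 0.43 (SE 0.18, adjusted p = 0.0459), and *Lrpap1* was at −0.05 (SE 0.076, adjusted p = 0.584). Between females and males 0 of 9 members passed, nor did any have an unadjusted p under 0.05, beside 0.0262% of all genes at the adjusted and 3.43% at the unadjusted threshold. *Lrp2* was at 0.16 (SE 0.15) in females over males.

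Since *Lrp2* is made by the cells that line the ventricle, its level was set against markers of 9 cell types of the region. The ependymal list names 30 genes, mostly of motile cilia, such as *Foxj1*, which encodes the master factor of motile cilia, and the radial spoke genes *Rsph1* and *Rsph4a*. Of these 22 were tested. *Ccdc153*, *Tekt4* and *Meig1* had no probe of their own, *Tmem212*, *Dnah6*, *Dnah9* and *Spef2* were detected on 0 arrays and *Spag17* on 2. Each mouse's score is the mean log2 intensity of the tested genes of a list.

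Ependymal markers moved with *Lrp2* across the mice of a group. After centring within genotype and day, *Lrp2* and the ependymal score correlated at r = 0.85 over 18 arrays (permutation p = 3e-05, adjusted p = 0.00243 over 81 relations of 9 genes with 9 lists). Spearman's rho was 0.85 (permutation p = 8.0e-05, adjusted p = 0.00648). Within day 1 r was 0.80 and within day 2 0.94, among Tam-Idh1-KI mice 0.83 and among controls 0.89. Without the 2 arrays farthest from the median score it was 0.91. The lists were chosen with earlier results of these data known, and the adjustment over 81 relations does not cover that choice.

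At the low end of the centred ependymal score, Tam-Idh1-KI mouse 6 had −0.45 with *Lrp2* at −0.27 and mouse 8 had −0.26 with −0.44. At the high end Tam-Idh1-KI mouse 2 had 0.30 with *Lrp2* at 0.20 and control mouse 3 had 0.24 with 0.37. The day 1 Tam-Idh1-KI mouse with the least ependymal signal was thus also the one with the least *Lrp2*.

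**Figure D4:**
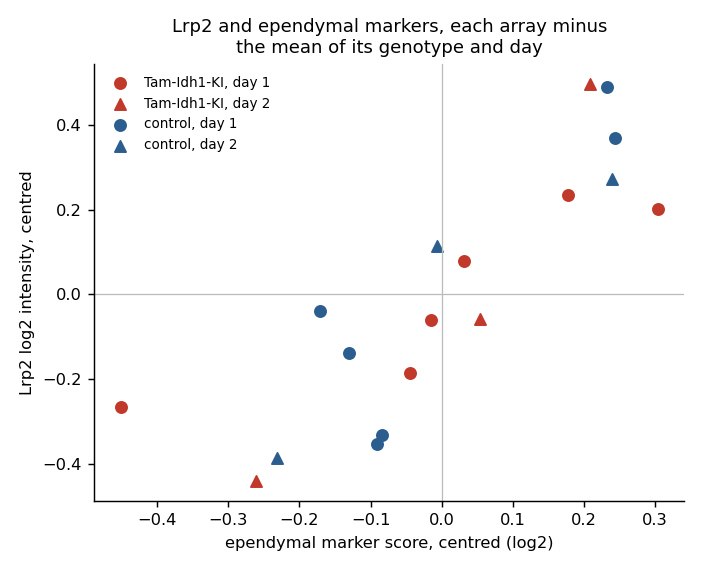
*Lrp2* log2 intensity (y axis) against the mean log2 intensity of 22 ependymal marker genes (x axis) on 18 arrays, each value less the mean of its genotype and hybridisation day. The points rise together in both groups and on both days, with r = 0.85 over all 18.

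The same markers were also higher in most Tam-Idh1-KI mice. All 22 tested genes of the list were positive, against 54.5% of all genes, and their median was 0.33, against 0.01. By limma 0 of the 22 passed over all genes (smallest adjusted p = 0.168), against 0.174% of all genes, and 15 had an unadjusted p under 0.05, against 9.57%. The nearest were *Fam183b* at 0.42 (SE 0.11), *Cfap52* at 0.50 (SE 0.14), *Mlf1* at 0.44 (SE 0.13) and *Dynlrb2*, of the dynein light chains, at 0.45 (SE 0.13), while *Foxj1* was at 0.04 (SE 0.13). The score ran from 8.94 to 9.69 in Tam-Idh1-KI and from 8.78 to 9.34 in control mice, and was above the control mean of the day in 8 of 9. With the ependymal score as a covariate the difference of *Lrp2* was 0.37 (SE 0.12), 49.5% of the value without it. The part of the ependymal markers in the difference of *Lrp2* was not tested.

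The choroid plexus, the other megalin-bearing tissue of the ventricle, gave other values. Of its 20 markers 12 were tested, 6 were positive and their median was 0.01. The median was 0.08 on day 1 alone and 0.21 on day 2 alone. Those fits had detection filters of their own, so their genes can differ from these 12, and the day 2 fit left out sex. In the main limma fit 0 of the 12 passed, against 0.174% of all genes, and 4 had an unadjusted p under 0.05, against 9.57%. *Ttr*, of the thyroid hormone carrier that the choroid plexus makes in bulk, was at −0.21 (SE 0.35), *Kl* at −0.07 (SE 0.17) and *Otx2* at −0.10 (SE 0.18). The folate receptor gene *Folr1* was at 0.51 (SE 0.15, adjusted p = 0.256), *Slco1c1* at 0.35 (SE 0.096), *Sostdc1* at 0.28 (SE 0.12) and *Steap1* at 0.32 (SE 0.15). *Cldn2* and *Kcne2* were detected on 0 arrays, *Col8a1* on 2, and *F5* and *Trpv4* on 7. The score ran from 7.89 to 8.59 in Tam-Idh1-KI and from 7.92 to 8.26 in control mice. Its centred relation to *Lrp2* was r = 0.37 (permutation p = 0.148, adjusted p = 0.571), and with it as a covariate the *Lrp2* difference was 0.71 (SE 0.15), 95.3% of the value without it.

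Of the 81 relations the one of *Lrp2* with the ependymal list was the only one to pass. *Lrp2* and the endothelial and mural score were at r = −0.55 (permutation p = 0.0219, adjusted p = 0.218). With the neural stem cell and astrocyte score *Lrp2* was at r = 0.51 (permutation p = 0.0628, adjusted p = 0.363). That r was 0.25 within day 1 and 0.93 within day 2, the latter near the 0.94 of the ependymal score. It was 0.37 among Tam-Idh1-KI mice, 0.76 among controls and 0.75 without the 2 arrays farthest from the median score. Spearman's rho was 0.61 (permutation p = 0.0230, adjusted p = 0.311). *Lrp10* was at 0.61 with the ependymal and at 0.67 with the mature oligodendrocyte score, *Lrp8* at 0.66 with the neural stem cell and astrocyte score, and *Lrp4* at 0.63 with the microglia and macrophage score, each with an adjusted permutation p = 0.218. *Lrp1* and *Lrp1b* were both at −0.59 with the neural stem cell and astrocyte score (adjusted permutation p = 0.218 for each). The mature oligodendrocyte list had a median difference of 0.22 with 12 of 12 positive, and the striatal neuron list one of −0.08 with 3 of 12 positive. The neuroblast list had a median of 0.17 with 11 of 15 positive. Over all genes 54.5% were positive. By limma 0 genes of each of these lists passed, against 0.174% of all genes. An unadjusted p under 0.05 was found for 3 mature oligodendrocyte, 0 striatal neuron and 5 neuroblast genes, against 9.57% of all genes. The neural stem cell and astrocyte, endothelial and mural, microglia and macrophage, and leptomeninges lists had medians between 0.03 and 0.07. In that order 12 of 17, 10 of 15, 10 of 12 and 3 of 6 were positive. An unadjusted p under 0.05 was found for 4, 3, 1 and 1 of them, against 9.57%, and 0 passed by limma, against 0.174%. The leptomeninges gene was *Ogn* at 0.87 (SE 0.20, limma adjusted p = 0.111). The leptomeninges score, of the membranes around the brain, rests on 6 of 14 genes, with *Col1a1* and *Col3a1* detected on 0 arrays.

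**Figure D5:**
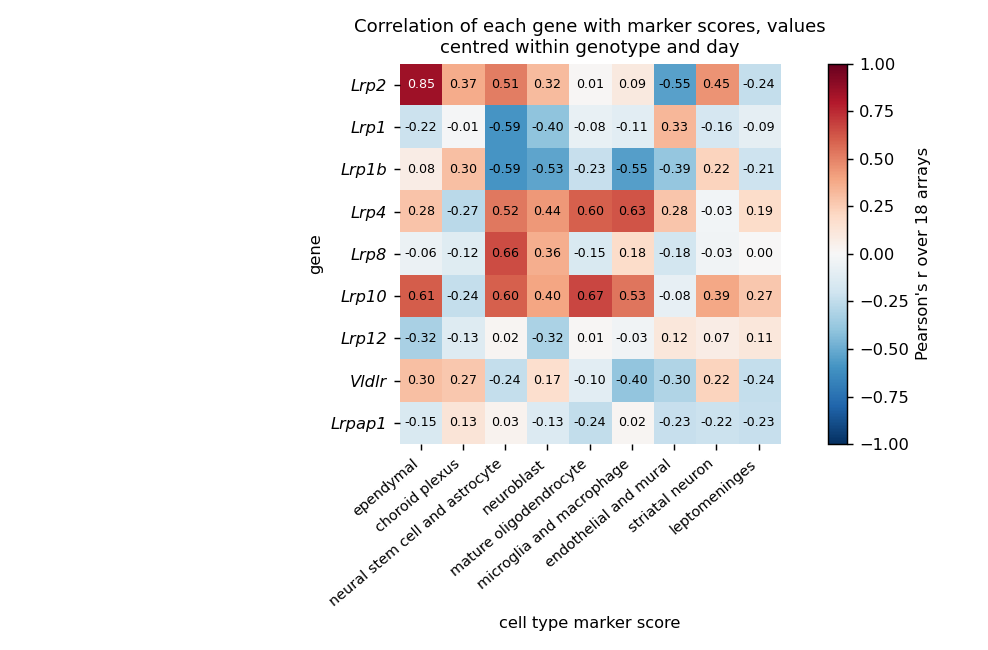
Pearson's r over 18 arrays between each of the 9 tested members (rows) and the scores of 9 cell type marker lists (columns), all values centred within genotype and hybridisation day. *Lrp2* with the ependymal score, at 0.85, is the only cell whose adjusted permutation p is under 0.05.

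The genes most like *Lrp2* were ranked by the correlation over 18 arrays of what genotype, day and sex left over, which describes likeness and carries no test. Highest were *Fam216b* (r = 0.89), *Cd55*, which encodes a complement inhibitor (0.86), the serine protease gene *Prss56* (0.85), *Mlf1* (0.84), the astrocyte and ependymal water channel gene *Aqp4* (0.84) and *Aif1l* (0.82). Their own genotype differences were 0.53, 0.37, 0.32, 0.44, 0.27 and 0.18, and none passed. Lowest were *Scamp5*, of a synaptic vesicle protein (−0.85), *Renbp* (−0.83), the actin turnover gene *Wdr1* (−0.83) and *Noc4l* (−0.82). Of the 22 ependymal genes 15 (68.2%) exceeded 0.6, against 2.24% of the other 11464 genes. Among the relatives *Lrp10* was closest at 0.57, rank 342 of 11464, and *Lrp1* was farthest at −0.33. All these correlations come from the same 18 arrays, and what sets them was not tested.

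Genes that work with these receptors were counted in 6 lists, and by limma 0 of the tested members of each passed between the genotypes, against 0.174% of all genes. Over all genes 9.57% had an unadjusted p under 0.05 and 54.5% were positive. Of megalin's adaptors and partners 12 were tested, 6 were positive, the median was −0.04 and 1 had an unadjusted p under 0.05. That one was *Dlg4*, of a scaffold protein, at −0.45 (SE 0.15, adjusted p = 0.2998), and *Dab2*, of the adaptor that links megalin to clathrin, was at 0.29 (SE 0.14). *Dlg3* was at −0.22 (SE 0.11) and *Amn*, which encodes cubilin's partner amnionless, at −0.25 (SE 0.15). Of 13 genes of receptor folding and turnover 6 were positive with a median of −0.00 and 1 had an unadjusted p under 0.05, the recycling GTPase gene *Rab11a* at −0.27 (SE 0.099). *Rab5a* was at −0.08, *Sorcs1* at 0.07 and *Furin* at 0.09.

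Of 21 tested genes for ligands of megalin and *Lrp1* 7 were positive, the median was −0.06 and 2 had an unadjusted p under 0.05. *Lgals3*, which encodes galectin-3, was at 0.49 (SE 0.19) and the metallothionein gene *Mt2* at −0.30 (SE 0.14), with *Rbp4*, of the vitamin A carrier, at 0.26 (SE 0.16) and *Hspg2* at 0.23 (SE 0.14). Of 20 tested genes of the reelin pathway 8 were positive, the median was −0.03 and 7 had an unadjusted p under 0.05, beside 9.57% of all genes. They included *Socs7* at −0.50 (SE 0.15), *Dlg4*, *Pafah1b3* at 0.27 (SE 0.090) and *Efnb1* at 0.33 (SE 0.12), while *Reln* itself was at −0.20 (SE 0.12). The 7 also held *Nckap5* at 0.38 (SE 0.15), whose place in the pathway was not checked. *Dlg4* was counted among megalin's adaptors and partners too. Of 6 tested genes of the agrin and *Lrp4* pathway 4 were positive, the median was 0.09 and 2 had an unadjusted p under 0.05. *Rapsn*, of the acetylcholine receptor anchor, was at −0.43 (SE 0.16), *Sostdc1* at 0.28, *Chrnb1* at 0.33 (SE 0.16) and *Agrn*, of the ligand, at 0.06 (SE 0.071). Of 5 other tested LDL receptor family genes 3 were positive and 0 had an unadjusted p under 0.05, with a median of 0.01. *Ldlrad2* was at 0.36 (SE 0.20), *Lrp5* at 0.15, *Lrp11* at −0.07 and *Sorl1* at −0.04.

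Mean array signals overlapped between the groups but reached higher in Tam-Idh1-KI mice, at 460.2 to 905 against 454 to 679 in controls, and 44.6% to 50.9% of probes were detected. *Idh1* was at 9.39 ± 0.25 (SD within days, n = 9) in Tam-Idh1-KI and 9.74 ± 0.19 (n = 9) in control mice. The difference was −0.37 (SE 0.10, adjusted p = 0.212 in limma), with 9 of 9 Tam-Idh1-KI mice under the control mean of their day. Where the *Idh1* probe binds was not analysed, so whether it tells the mutant from the normal transcript is unknown.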

How the data were processed

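Illumina arrays measured whole-tissue SVZ RNA of 9 control and 9 Tam-Idh1-KI mice. The files deposited for each array hold raw bead signals, which are intensity values on a linear scale, not normalised and with no background removed, and a detection p-value for each probe. GenomeStudio is named in the submitters' processing notes without a version. A table of log2 values processed by the authors was deposited too. Within an array these have the same rank order as the signals (Spearman rho 1), their medians are 6.22 to 6.30 and they are not centred by gene. How they were normalised is unknown, and they were used as an alternative.

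The signals were background corrected with the help of the detection p-values, given an offset of 16, quantile normalised and log2 transformed by neqc (limma 3.58.1, R 4.3.3). A probe was kept if its detection p was under 0.05 on 9 or more arrays. For a gene with several kept probes the one with the highest mean was used, so a gene's value can rest on 1 of several probes that disagree. In the platform annotation used here 34885 probes had 1 symbol, 18 several and 10378 none. Members were matched by symbol.

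Genotype, hybridisation day and sex were fitted to all 18 arrays with lmFit and eBayes of limma, the p-values were adjusted by Benjamini-Hochberg over 11465 genes, and 0.05 was the threshold. A separate fit covered the 21644 kept probes. Relations to marker scores were tested with 100000 permutations within genotype and day, two-sided (smallest possible p 1e-05). The procedure was tested on simulated data. The members and lists were chosen with earlier results of these data known. The text names every member, up to 4 genes of each detailed list by smallest unadjusted p, the 6 genes most and 4 least like *Lrp2*, and *Idh1*. *Foxj1*, *Rsph1*, *Rsph4a*, *Ttr*, *Kl*, *Otx2*, *Reln*, *Nckap5* and the undetected markers were named after their values were seen. *Bace2* and *Gm5* are the neighbours of *Lrp2* at the threshold. Mice are numbered within each group by the labels, which give no litters, whereas the study's methods speak of littermate controls. Same-numbered mice, which also share a day, deviated together (r over 0.1) in 9 of 9 pairs around the genotype mean and in 4 of 9 around the genotype and day mean. The number as a block, with sex, was an alternative whose *Lrp2* value is given beside the main one. Each sample is taken as 1 mouse. Of the sample columns 0 were left unused, and the number of arrays limits the precision.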

Additional observations from a re-analysis of the deposited data

How the results depend on the processing

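The difference of *Lrp2* was positive in all 37 alternatives, a sign favoured in advance by the choice of the gene on these arrays. The difference was 0.37 with the ependymal score as a covariate and 0.43 to 0.88 in the other settings. Leaving out 1 mouse gave 0.68 to 0.82. Its adjusted p was not under 0.05 in 25 of 36 alternatives, 13 of which left out 1 mouse. Median scaling shifted the median of all genes by 0.12, and 0.71 of its 0.83 for *Lrp2* lay above that shift. It turned the split of calls from 11 higher and 9 lower to 16 and 7. The split was 6 and 8 with cyclic loess, under which 8 of 9 Tam-Idh1-KI mice exceeded every control of their day in *Lrp2*, as 9 did under the other scalings.

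The count of genes called, 20, fell to 8 with genotype only, 4 on day 1 alone, 0 on day 2 alone, in females or in males, and 7 with the ependymal score as a covariate. It was 61 with array weights, and 4 to 36 with 1 mouse left out, lowest without control replicate 1 or 8 and highest without Tam-Idh1-KI replicate 6. The methods' t-test called 538 genes unadjusted and 3 after Benjamini-Hochberg. The other members called stayed at 0 in all 38 alternatives. The replicate block with sex called 8 genes, with *Lrp2* at 0.73 and no longer under the threshold (limma adjusted p = 0.116), and changed no call of another member. The sex and pathway counts stayed at 0, the day count at 7 to 8, and the *Lrp2* relation to ependymal markers passed in 26 of 26 alternatives (r = 0.82 to 0.89; 20000 permutations each). The causes were not tested.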
